A study of Mus musculus with 6 samples.

Results

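The genes described here supply cells with serine, one-carbon units and amino acids. They are Phgdh, Psat1 and Psph, which make serine, Shmt2, Mthfd2 and Aldh1l2 of the mitochondrial folate cycle, Asns, which makes asparagine, and Slc7a5, Slc7a11 and Slc3a2, which carry amino acids across the plasma membrane. They were taken by name, and all 10 were found among the 23420 rows of the deposited gene count table. All 10 lie on the minus strand in mm10. Their splice junctions were read from the junction lists of the same libraries.

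The libraries hold ribosome-bound RNA of cerebellar Purkinje neurons, the output neurons of the cerebellar cortex, from C57BL/6 mice aged 4 weeks. In BacTRAP a GFP-tagged ribosomal protein is pulled down with the RNA bound to it, and here the promoter of the Purkinje gene Pcp2 drove the tag in both genotypes. The conditional knockout (cKO) libraries came from 3 mice with Pcp2-Cre and with 1 floxed and 1 null allele of Rbm17, and the Control libraries from 3 mice with 1 floxed and 1 wild-type allele and no Cre. Each library was made from 1 cerebellum. RBM17 is known as a splicing factor that helps to recognise 3′ splice sites, and the series title asks about cryptic splicing after its loss. The effects of Cre, of the null allele and of the deletion cannot be told apart, because no Control mouse carried Cre or the null allele.

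Serine is made from a glycolytic intermediate by PHGDH, PSAT1 and PSPH in turn, and SHMT2 passes a carbon of serine to folate inside mitochondria, where MTHFD2 and ALDH1L2 oxidise it further. In the brain, PHGDH is known mainly from astrocytes and from the Bergmann glia that surround Purkinje cells, and neurons take up much of their serine from them. The transcription factor ATF4, which is translated when the integrated stress response lowers general protein synthesis, is known to bind and activate all of these genes in cell lines.

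Each library held between 140110897 and 160571518 gene counts and between 73457422 and 83976095 junction reads. Levels are given in CPM, counts on library sizes scaled between libraries and set to 1000000. Rbm17 itself had 25.7, 25.6 and 26.3 CPM in cKO libraries, against 41.2, 42.5 and 41.3 CPM in Control libraries. The groups did not overlap, and the log2 fold change of cKO over Control was -0.69 (SE 0.09, adjusted p = 0.00163). Among Rbm17 reads leaving exon 3, 41.3%, 35.8% and 43.3% skipped exon 4 in cKO libraries, against 0.609%, 0.176% and 0.183% in Control libraries. The summed markers of Purkinje cells were lower and those of microglia higher in the same cKO libraries, though not every marker moved. Log2 fold changes ran from -1.50 to 0.07 over the Purkinje markers and from -0.10 to 2.97 over the microglia and macrophage markers. Of 15 Purkinje markers 9 were called lower in cKO, with a sum of 18750.2 to 21832 CPM in cKO libraries against 31304 to 41810.0 CPM in Control libraries. Of 15 microglia and macrophage markers 8 were called higher, with a sum of 116 to 191 CPM in cKO libraries against 60.6 to 89.6 CPM in Control libraries. Of 14 astrocyte and Bergmann glia markers 1 was called higher (Gfap) and 2 lower (Slc4a4 and Hopx), with a sum of 4579 to 5569 CPM in cKO libraries against 6227 to 6546 CPM in Control libraries. No gene of these 3 lists was at 0 in all libraries. Pcp2, whose promoter drove the tag, was one of the 9 Purkinje markers called lower. It averaged 399 ± 74 CPM in cKO and 1052 ± 43 CPM in Control libraries (SD, n = 3 each). Its log2 fold change was -1.40 (edgeR adjusted p = 0.000348). The part of these cell types and of the tag in the results below was not tested. In such bulk samples fewer cells of a type, less RNA per cell and less tagged ribosome cannot be told apart.

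None of the 10 genes passed the test of cKO against Control at the gene level. With edgeR's quasi-likelihood test, 0 were called higher and 0 lower at an adjusted p under 0.05, where 7.87% of all 16067 genes tested were called, 4.03% higher and 3.85% lower. No member had an unadjusted p under 0.05 (22.1% of all genes had), and DESeq2 called 0 members (12.7% of all genes). All 10 passed the filter on low counts. Their log2 fold changes lay between -0.08 and 0.55 with a median of 0.06, beside a median of 0.01 over all genes. The estimate was above 0 in 7 members and below 0 in 3. The groups overlapped in all 10 members, while they did not overlap in 28.4% of all genes. The upper bounds of the 95% intervals were 1.44-fold or less in 9 members, and the lowest lower bound of all 10 was 0.790-fold. The p-values rest on the spread between 3 animals per genotype, which edgeR estimates with help from the other genes.

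**Figure D1:**
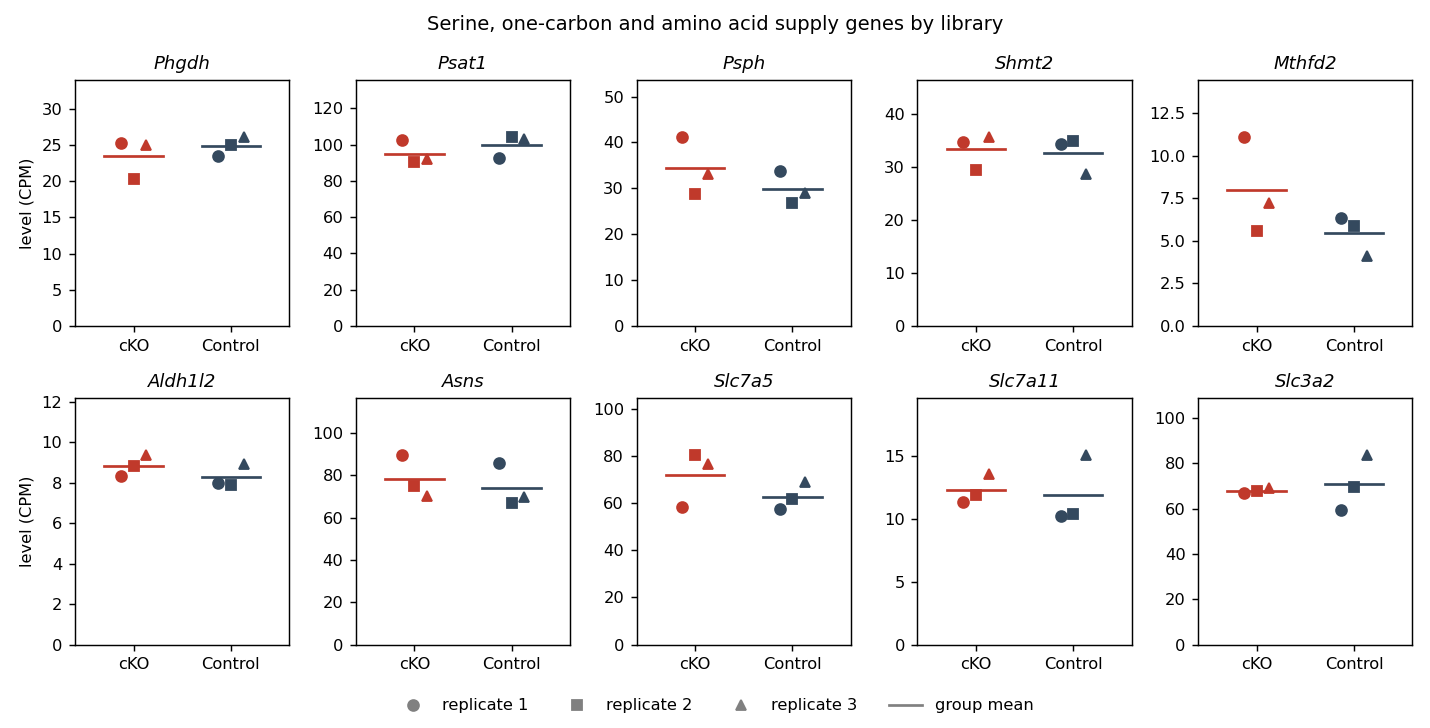
Level of each of the 10 genes in CPM (linear axis from 0) in the 3 cKO and the 3 Control libraries; each symbol is 1 library, marked by replicate number, and the line is the group mean. The groups overlap in every panel, and Mthfd2 has its highest value, 11.1 CPM, in cKO replicate 1.

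Phgdh (chr3:98313170-98339990) encodes the first enzyme of serine synthesis. Its level was 25.2, 20.3 and 25.0 CPM in cKO libraries, against 23.5, 25.0 and 26.1 CPM in Control libraries. The lowest of the 6 was cKO replicate 2, and the other 5 lay close together. The log2 fold change was -0.08 (SE 0.12, adjusted p = 0.757). Psat1 (chr19:15904678-15947337), the aminotransferase that follows it, had 102.5, 90.4 and 91.8 CPM in cKO libraries, against 92.6, 104.4 and 102.8 CPM in Control libraries. The highest cKO library lay among the Control libraries, and the log2 fold change was -0.07 (SE 0.09, adjusted p = 0.711). Psph (chr5:129765558-129787449), the phosphatase of the last step, had 41.3, 28.7 and 33.2 CPM in cKO libraries, against 33.7, 26.8 and 29.0 CPM in Control libraries. Replicate 1 was the highest of its group in both genotypes. The log2 fold change was 0.21 (SE 0.14, adjusted p = 0.462), with an interval of 0.924 to 1.44-fold. It was 0.053 without cKO replicate 1 and 0.32 without cKO replicate 2.

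Shmt2 (chr10:127517123-127522444), which splits serine into glycine and a one-carbon unit in mitochondria, had 34.7, 29.4 and 35.7 CPM in cKO libraries, against 34.2, 34.9 and 28.7 CPM in Control libraries. Each group held 1 low library and 2 higher ones, and the log2 fold change was 0.03 (SE 0.12, adjusted p = 0.917). Mthfd2 (chr6:83305691-83325908), a mitochondrial dehydrogenase of the folate cycle, had 11.1, 5.59 and 7.25 CPM in cKO libraries, against 6.33, 5.90 and 4.13 CPM in Control libraries. The highest values came from cKO replicates 1 and 3, while cKO replicate 2 lay below 2 of the Control libraries. Its log2 fold change of 0.55 was the largest of the 10 members and also had the largest error (SE 0.26, adjusted p = 0.253), with an interval of 0.980 to 2.19-fold. It was 0.24 without cKO replicate 1 and 0.37 without Control replicate 3. Aldh1l2 (chr10:83487450-83534140), which oxidises formyl-tetrahydrofolate in mitochondria, had 8.34, 8.84 and 9.38 CPM in cKO libraries, against 8.01, 7.91 and 8.92 CPM in Control libraries. The highest Control library lay above 2 of the cKO libraries, and the log2 fold change was 0.10 (SE 0.14, adjusted p = 0.759).

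Asns (chr6:7675169-7693254), asparagine synthetase, had 89.7, 75.2 and 70.5 CPM in cKO libraries, against 85.7, 66.9 and 69.9 CPM in Control libraries. Replicate 1 was the highest in both genotypes, and the log2 fold change was 0.08 (SE 0.12, adjusted p = 0.773). Slc7a5 (chr8:121881150-121907694), the LAT1 transporter of large neutral amino acids, had 58.5, 80.6 and 76.7 CPM in cKO libraries, against 57.6, 61.9 and 69.1 CPM in Control libraries. The higher cKO libraries exceeded all Control libraries, but cKO replicate 1 lay near the lowest of them. Its log2 fold change was 0.19 (SE 0.13, adjusted p = 0.433).

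Slc7a11 (chr3:49892526-50443614), the xCT cystine and glutamate exchanger, had 11.3, 11.9 and 13.6 CPM in cKO libraries, against 10.2, 10.4 and 15.1 CPM in Control libraries. The Control group held both the lowest and the highest value, and the log2 fold change was 0.04 (SE 0.17, adjusted p = 0.917). Slc3a2 (chr19:8706882-8723369), the heavy chain that brings LAT1 and xCT to the plasma membrane, had 66.7, 67.6 and 69.1 CPM in cKO libraries, against 59.5, 69.6 and 83.6 CPM in Control libraries. The cKO libraries lay within the range of the Control libraries, and the log2 fold change was -0.06 (SE 0.12, adjusted p = 0.816).

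Per length, as CPM per kilobase of all annotated exons, Asns had the highest mean level over the 6 libraries, 28.7 ± 3.7 in cKO and 27.1 ± 3.7 in Control libraries (SD, n = 3 each). Psat1 followed with 22.3 ± 1.6 in cKO and 23.5 ± 1.5 in Control libraries. Slc3a2 stood at 19.2 ± 0.34 in cKO and 20.1 ± 3.4 in Control libraries. The ranges of these 3 genes and of Slc7a5 (19.4 ± 3.2 in cKO and 17.0 ± 1.6 in Control libraries) overlapped from each gene to the next. A gap then separated Slc7a5 from Shmt2, which had 10.7 ± 1.1 in cKO and 10.5 ± 1.1 in Control libraries. Phgdh had 9.46 ± 1.1 in cKO and 10.0 ± 0.54 in Control libraries, and Psph 7.94 ± 1.5 in cKO and 6.89 ± 0.82 in Control libraries. Shmt2, Phgdh and Psph also overlapped from each gene to the next. A second gap separated them from the lowest 3. Mthfd2 had 2.29 ± 0.81 in cKO and 1.56 ± 0.33 in Control libraries, Aldh1l2 had 1.18 ± 0.069 in cKO and 1.10 ± 0.075 in Control libraries, and Slc7a11 had 0.880 ± 0.084 in cKO and 0.854 ± 0.20 in Control libraries. Exons of Psph, Shmt2 and Aldh1l2 overlap annotated exons on the opposite strand (of Cct6a, Ndufa4l2 and D10Wsu102e), and since the strand setting of the counting is not given in the sources used here, the levels of these 3 genes are uncertain.

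No member was called on reads spliced over annotated introns either. Of the 14710 genes tested on these reads 5.72% were called (2.9% higher and 2.82% lower), and 0 of the 10 members were. With edgeR 1 member, Mthfd2, had an unadjusted p under 0.05, as did 19.2% of all genes tested on these reads. Levels here are in RPM, the spliced reads on scaled library sizes set to 1000000. Mthfd2 had 8.28, 5.43 and 7.26 RPM in cKO libraries, against 5.43, 5.28 and 3.14 RPM in Control libraries. All cKO libraries exceeded the Control libraries, cKO replicate 2 by a margin smaller than the last digit given, and the groups did not overlap in 25.3% of all genes tested on these reads. The log2 fold change on spliced reads was 0.60 (SE 0.27, adjusted p = 0.260). Slc7a11 had 5.78, 8.69 and 9.61 RPM in cKO libraries, against 7.28, 6.07 and 4.91 RPM in Control libraries. The groups overlapped through cKO replicate 1, and the log2 fold change was 0.40 (SE 0.24, adjusted p = 0.431). The other 8 members had log2 fold changes between -0.09 and 0.19 on spliced reads.

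The rest of the amino acid pathways was read from 4 lists of other genes, none of which had a called gene, while ATF4 and several genes of its pathway rose. The lists held 22 other genes of serine, glycine and folate metabolism, 10 of methionine, transsulfuration and glutathione metabolism, 17 of other amino acid synthesis and breakdown and 22 other amino acid transporters that were tested. Of these 71 genes 0 were called. An unadjusted p under 0.05 was found in 10, of which 9 were lower in cKO, where 22.1% of all genes had one and 10.6% were lower. The groups did not overlap in 13, of which 10 were lower in cKO, where 28.4% of all genes did not overlap and 13.4% were lower. For the 4 lists the medians of the log2 fold changes were -0.07, -0.06, -0.05 and -0.03. DESeq2 called 3 of the 71, where it called 12.7% of all genes. All 3 were lower in cKO, among them Bcat1, a branched-chain aminotransferase, and Slc6a9, a glycine transporter. The most abundant genes of the lists differed little between the groups. Dld, a subunit of the glycine cleavage system, averaged 143 ± 18 CPM in cKO and 150 ± 22 CPM in Control libraries. Sfxn3, a mitochondrial serine carrier, averaged 129 ± 9.9 CPM in cKO and 145 ± 9.9 CPM in Control libraries. For Mat2a, which makes S-adenosylmethionine, the means were 167 ± 22 CPM in cKO and 162 ± 22 CPM in Control libraries. Their log2 fold changes were -0.06, -0.16 and 0.04.

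The other 5 abundant genes lay in the same narrow range. Gclc, of glutathione synthesis, had a log2 fold change of -0.12, Got1, an aspartate aminotransferase, of -0.02, and Glul, glutamine synthetase, of -0.12. The neutral amino acid transporters Slc38a1 and Slc38a2 had log2 fold changes of -0.11 and -0.04. Slc38a1 was the only one of the 8 named genes whose groups did not overlap, with 336, 330.4 and 318 CPM in cKO libraries against 337, 359 and 367 CPM in Control libraries. Its adjusted p was 0.491.

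Of 21 regulators and feedback genes of the ATF4 pathway, 7 were called higher in cKO and 0 lower, with a median log2 fold change of 0.53. Over all genes tested 4.03% were called higher and 3.85% lower. This list, like the others, was chosen with earlier results of these data known. Atf4 had 320.7, 299.9 and 308.1 CPM in cKO libraries, against 192, 189.9 and 209 CPM in Control libraries. All cKO libraries exceeded all Control libraries, and the log2 fold change was 0.65 (SE 0.08, adjusted p = 0.00163). Ddit3, the stress-induced factor CHOP, had 34.7, 24.7 and 25.3 CPM in cKO libraries, against 11.3, 8.18 and 9.31 CPM in Control libraries, a log2 fold change of 1.56 (SE 0.17, adjusted p = 0.000697). Sesn2, a leucine sensor of the mTORC1 pathway, had 30.01, 21.8 and 23.8 CPM in cKO libraries, against 11.2, 11.4 and 13.0 CPM in Control libraries, and rose by 1.09 on the log2 scale (SE 0.14, adjusted p = 0.00163). Atf3, a stress-induced transcription factor, had 32.0, 15.3 and 15.8 CPM in cKO libraries, against 1.32, 0.494 and 3.21 CPM in Control libraries, with a log2 fold change of 3.65 (SE 0.56, adjusted p = 0.00382). Without Control replicate 3, the highest Control library, it was 4.52. In Ddit3, Sesn2 and Atf3 alike, cKO replicate 1 was the highest library and the groups did not overlap. Marker sums of the same library stood at the edge of the cKO group, where only 1 library of 3 is not at an edge. The microglia sum was 191 CPM against 116 and 144 in the other cKO libraries, and the Purkinje sum 18750 CPM against 20686 and 21832. For astrocytes and Bergmann glia it was 4579 CPM against 5280 and 5569, and for granule cells 3571 CPM against 5879 and 5041. The part of these cell types was not tested. Among the members, cKO replicate 1 was the highest of the 6 libraries in 3 (Psph, Mthfd2 and Asns).

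**Figure D2:**
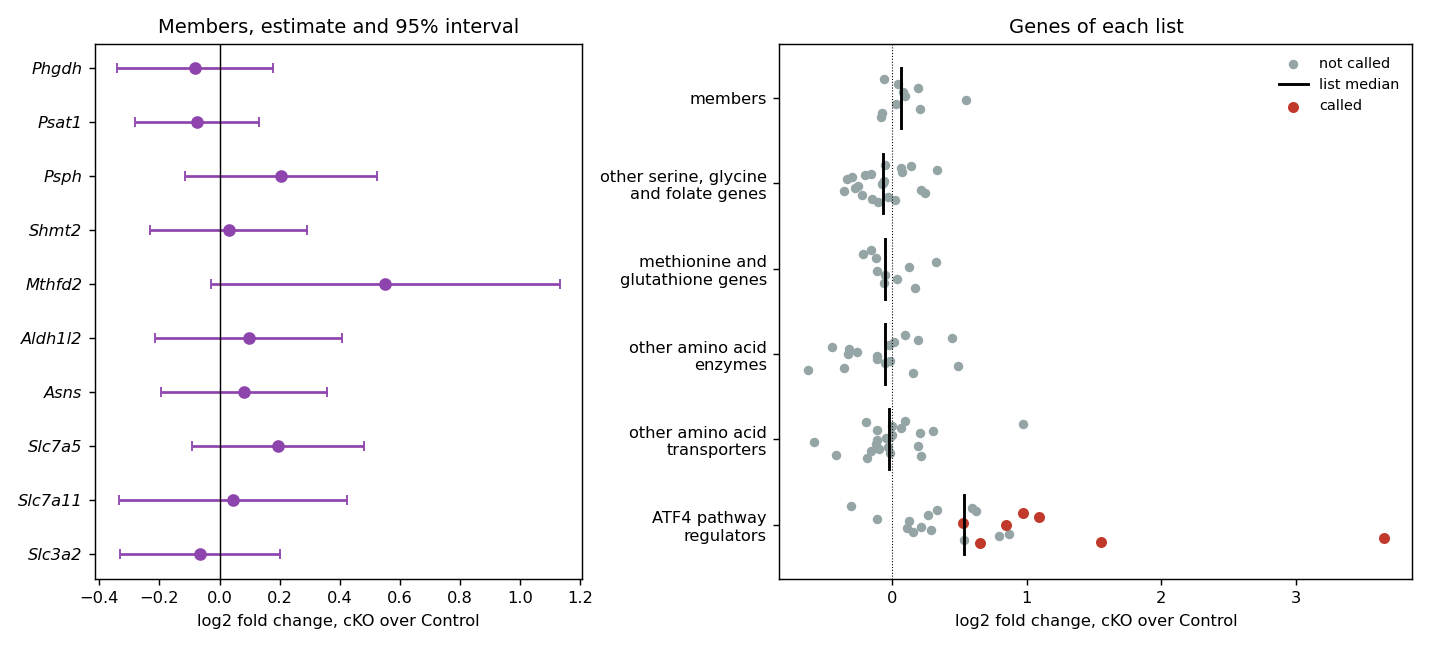
Log2 fold changes of cKO over Control. Left, each of the 10 genes with its estimate (point) and 95% interval (bar); right, 1 point per gene for the members, for 4 lists of other amino acid genes and for the ATF4 pathway regulators, with red points for called genes and a black line at each list's median. All members' intervals include 0, and the 7 called genes all belong to the ATF4 list.

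The element through which ATF4 acts in many of its target promoters, the C/EBP-ATF response element (CARE), was searched as TGATGNAA on both strands in 300 bases around each start site (250 before, 50 after), in the RefSeq promoters of GRCm38.p6. Of the members, 8 have an entry; Aldh1l2 and Slc7a5 have none. The letters were found in Asns and Slc7a11 among these 8, and in 1219 of all 27025 genes with an entry (3.97% of all 32851 promoter windows). The promoters of Asns and Slc7a11 are shown because they carry the element, while neither gene was called and Atf4 was. Both are the 100 bases before the start site on the minus strand (chr6:7693210-7693309 for Asns and chr3:50443614-50443713 for Slc7a11), with the matches in capitals. In Slc7a11 the second match reads on the opposite strand.
Asns promoter: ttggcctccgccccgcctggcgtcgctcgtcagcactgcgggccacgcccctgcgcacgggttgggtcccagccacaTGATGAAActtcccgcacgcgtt
Slc7a11 promoter: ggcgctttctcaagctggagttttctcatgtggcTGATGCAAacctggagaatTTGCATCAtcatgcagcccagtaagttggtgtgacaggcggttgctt

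The match in Asns starts at position -23 from the RefSeq start site, and those in Slc7a11 at -66 and -47. The Asns match (chr6:7693225-7693232) lies inside the gene span given above, whose upstream end is 7693254. For Asns the RefSeq start site thus lies downstream of that end, and which start was used in these libraries was not tested. The antioxidant response element, bound by NRF2 and searched as TGACNNNGC on both strands, was found in Asns, Phgdh and Psph among the 8 members. Over all 27025 genes with an entry it was found in 3781 (12.4% of all windows). The matches of the 2 elements do not overlap in these promoters. A match of letters is a description of the sequence, and binding was not measured.

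A changed junction share was called in 2 of the 8 members whose junctions could be tested. Junctions that share a donor or an acceptor were grouped into clusters, and each junction was tested for its share of the cluster's reads with edgeR, a call needing an adjusted p under 0.05 over 112047 junctions and a change of at least 5 percentage points. Of all junctions tested 0.751% were called (0.659% with a higher share in cKO and 0.0928% with a lower one), and of 11516 genes with a tested cluster 5.71% held a called junction. The members had 42 tested junctions in 15 clusters over 8 genes, of which 3 junctions were called, 1 in Asns and 2 in Psph. The 2 in Psph belong to the same cluster, so their shares are bound to one another and they are not separate events. Phgdh and Mthfd2 had no tested cluster. All 3 called junctions had a higher share in cKO. In the 5 pathway lists 3 further genes held 1 called junction each, Aldh18a1, Bcat2 and Slc38a9, which are named after their values were seen. Aldh18a1 and Bcat2 are among 14 other amino acid enzyme genes with 128 tested junctions. Slc38a9 is among 18 other transporter genes with 166. The serine, methionine and ATF4 lists had 138, 43 and 65 tested junctions in 18, 7 and 11 genes, and 0 were called.

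In Asns the called junction joins exon 1 directly to exon 3 (intron chr6:7685407-7693108) and leaves out exon 2, which is 272 bp long (chr6:7689252-7689523) and one of 12 exons. This junction is not in the GENCODE annotation. It had 285, 192 and 277 reads in cKO libraries, against 109, 131 and 83 reads in Control libraries, so that it was used in both genotypes. Of the reads that enter exon 3, 24.1%, 20.0% and 23.0% came straight from exon 1 in cKO libraries, against 9.60%, 14.5% and 7.70% in Control libraries. All cKO libraries exceeded all Control libraries, with means of 22.4% ± 2.1 in cKO and 10.6% ± 3.5 in Control libraries (SD, n = 3 each). The 95% Wilson interval of the lowest cKO library was 17.6% to 22.7%, and that of the highest Control library 12.4% to 17.0%, which covers counting error only. Of the reads that leave exon 1, 42.8%, 35.6% and 35.9% skipped exon 2 in cKO libraries, against 16.6%, 23.3% and 13.3% in Control libraries. The share of the cluster was 16.4% in cKO and 7.14% in Control libraries, a difference of 9.27 percentage points (adjusted p = 0.0230). The call held only without Control replicate 2 (adjusted p = 0.0205) when a library was left out. The adjusted p was 0.162, 0.0577 and 0.0969 without cKO replicate 1, 2 and 3, and 0.167 and 0.170 without Control replicate 1 and 3.

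Exon 2 holds the start codon of Asns, and its coding part (chr6:7689252-7689500, mm10, minus strand, GENCODE M21) is shown because these are the codons that a transcript without it lacks. It has 249 bases, 83 codons or 14.8% of the 1683 coding bases, and its first 2 codons, the start codon and the next, are in capitals. The N-terminal cysteine of asparagine synthetase is known as a catalytic residue of the enzyme.
Asns exon 2, coding part: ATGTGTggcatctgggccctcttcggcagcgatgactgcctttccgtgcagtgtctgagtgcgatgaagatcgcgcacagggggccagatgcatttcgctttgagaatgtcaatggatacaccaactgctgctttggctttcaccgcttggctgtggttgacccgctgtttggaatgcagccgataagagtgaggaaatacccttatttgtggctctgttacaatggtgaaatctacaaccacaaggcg

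In the transcript without exon 2, the first ATG lies in exon 1 and out of frame. The first ATG in the annotated frame is codon 116, in exon 3. Exon 1 precedes the start codon in the transcript with exon 2 too. That transcript was not searched for earlier ATGs, so the ATG in exon 1 is not shown to depend on the skipping. No protein was measured. Over the annotated introns of Asns, introns 1 and 2, which flank exon 2, had lower means in cKO than in Control libraries, while introns 3 to 11 had higher ones. The groups overlapped at all 11 introns. Without cKO replicate 1, a setting chosen after seeing the data, the cKO mean was higher at 3 introns only, introns 3, 10 and 11. Relative to all junction reads of a library, without scaling, intron 1 had 5.10 ± 0.67 RPM in cKO and 6.73 ± 1.1 in Control libraries. Intron 2 had 10.9 ± 0.36 in cKO and 12.3 ± 2.3 in Control libraries, and intron 3 had 11.5 ± 2.3 in cKO and 9.65 ± 0.63 in Control libraries. Reads were most frequent over intron 11, the last, with 27.6 ± 3.5 in cKO and 22.3 ± 2.1 in Control libraries.

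**Figure D3:**
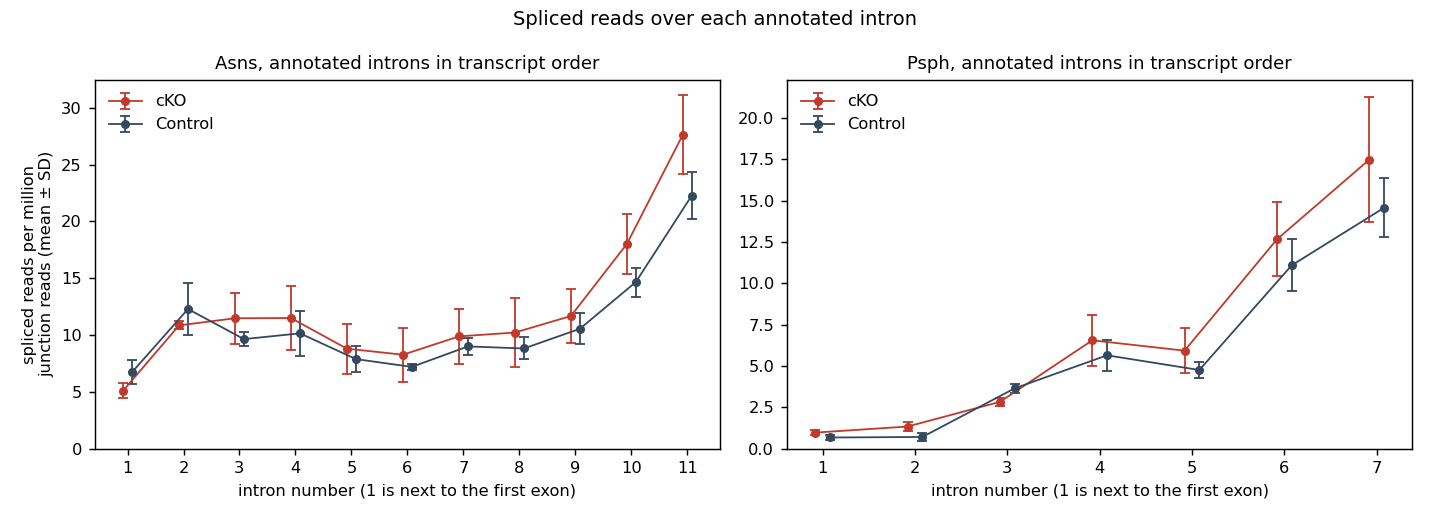
Spliced reads in RPM of all junction reads (linear axis) over each annotated intron of Asns and Psph in transcript order, as mean ± SD of 3 cKO (red) and 3 Control (blue) libraries. In Asns the cKO means lie below the Control means at introns 1 and 2 and above them from intron 3 on. At introns 4 to 9 they lie above only with cKO replicate 1 included, and cKO replicate 2 also exceeds the Control mean there. The groups overlap at all 11 introns of Asns. In Psph only intron 3, which leads into the first coding exon, has a lower cKO mean.

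In Psph the reads shifted towards an extra exon in the 5′ UTR. The called annotated junction (intron chr5:129771633-129776829) leads from a 112 bp exon (chr5:129776830-129776941), part of 1 annotated transcript, into the first coding exon. It had 226, 102 and 123 reads in cKO libraries, against 21, 12 and 9 reads in Control libraries. Of the reads that enter the first coding exon, 47.7%, 35.1% and 33.2% came from the extra exon in cKO libraries, against 6.71%, 4.21% and 3.25% in Control libraries. The groups lay far apart, with means of 38.7% ± 7.9 in cKO and 4.72% ± 1.8 in Control libraries (SD, n = 3 each). The cluster share was 27.1% in cKO and 4.47% in Control libraries, a difference of 22.6 percentage points (adjusted p = 0.00675). Without cKO replicate 1 the adjusted p was 0.0724, and without cKO replicate 3 it was 0.0512. In the annotation this exon is non-coding and the start codon lies in the next exon.

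The junction that passes over the extra exon (intron chr5:129771633-129779021) had 245, 188 and 246 reads in cKO libraries, against 292, 266 and 268 reads in Control libraries. Every cKO library lay below every Control library. Its cluster share was 43.2% in cKO and 89.8% in Control libraries, but the adjusted p was 0.0614 and it was not called. It is named with its values already known. The second called junction (intron chr5:129776942-129777234) joins the extra exon to a 142 bp stretch upstream (chr5:129777235-129777376) that is no annotated exon. It had 71, 3 and 26 reads in cKO libraries, against 0, 0 and 0 reads in Control libraries. The reads came almost wholly from cKO replicates 1 and 3. The cluster share was 5.32% in cKO and 0% in Control libraries (adjusted p = 0.0134). The difference was 2.96 percentage points without cKO replicate 1, below the 5 points a call needs, and 7.61 without cKO replicate 2. The adjusted p was 0.245 and 0.0741 without cKO replicates 1 and 3, and 0.0951 and 0.0685 without Control replicates 1 and 2. A further unannotated junction (intron chr5:129778844-129779021) had 65, 43 and 31 reads in cKO libraries, against 10, 16 and 1 reads in Control libraries, and was not called (adjusted p = 0.522).

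**Figure D4:**
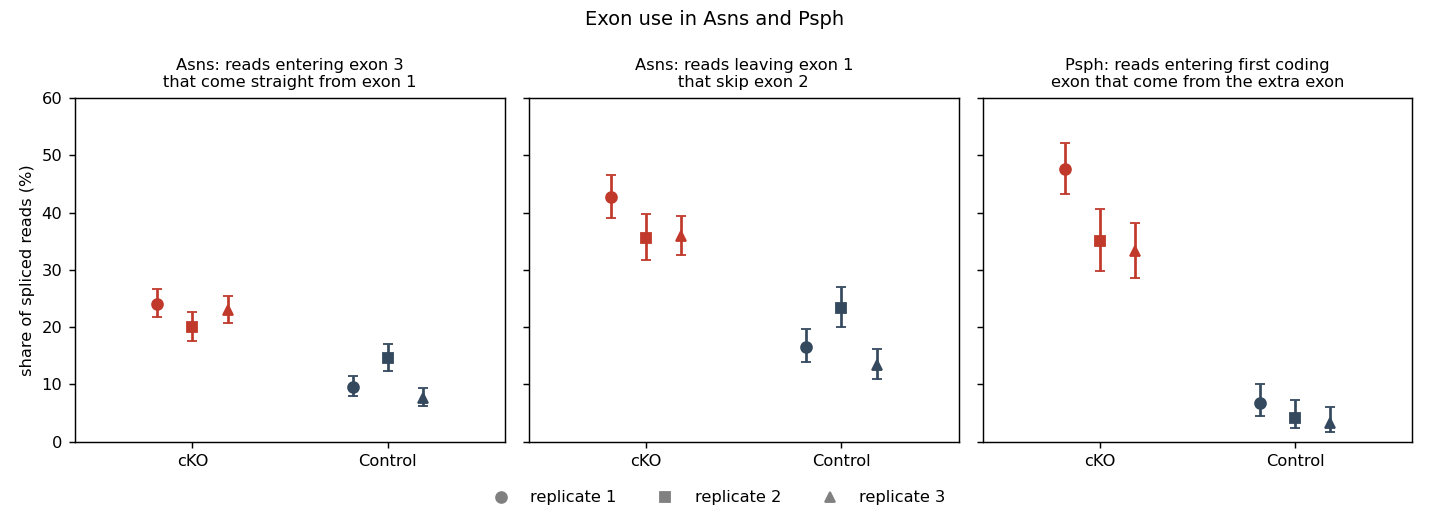
Share of spliced reads (percent, linear axis from 0) in each of the 3 cKO and 3 Control libraries, with 95% Wilson intervals that cover counting error only. The cKO libraries lie above the Control libraries in all 3 panels: 20.0% to 24.1% against 7.70% to 14.5% for Asns exon 3, 35.6% to 42.8% against 13.3% to 23.3% for Asns exon 1, and 33.2% to 47.7% against 3.25% to 6.71% for Psph.

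Unannotated junctions took 4.27%, 2.08% and 2.27% of the junction reads of Psph in cKO libraries, against 0.399%, 0.855% and 0.135% in Control libraries. For Asns the shares were 2.36%, 2.06% and 2.93% in cKO libraries, against 1.12%, 1.83% and 1.25% in Control libraries. Over all genes the shares were 2.13%, 2.03% and 2.04% in cKO libraries, against 1.52%, 1.98% and 1.69% in Control libraries. In both genes, as over all genes, all cKO libraries exceeded all Control libraries, and the shares of Asns lay near those over all genes. Unannotated reads of Shmt2, at 1.96%, 2.48% and 1.56% in cKO libraries against 1.77%, 3.00% and 1.20% in Control libraries, overlapped between the groups. The most-read unannotated junction of Shmt2 (intron chr10:127520172-127520917) had 51, 88 and 74 reads in cKO libraries, against 41, 139 and 26 reads in Control libraries, with an adjusted p of 1. The Control libraries held both the highest and the lowest of these counts.

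In the other 7 members the most-read unannotated junction had between 13 and 38 reads over all 6 libraries. Those of Phgdh (13 reads), Psat1 (38 reads) and Mthfd2 (20 reads) each came from 1 Control library alone. That of Slc7a11 (20 reads) came from 2 Control libraries, and those of Aldh1l2, Slc7a5 and Slc3a2 were seen in both genotypes. Over the 10 genes 91 of 209 junctions seen were unannotated, and they held 2423 reads beside 249527 on annotated introns.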

How the data were processed

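The study measured ribosome-bound RNA in 3 cKO and 3 Control libraries. Double-stranded cDNA was amplified from 10 ng of RNA and sheared for inserts of 400 bp, per the labels' protocols, so reads are not independent molecules and intervals cover counting error only. TopHat2 2.1.0, HTSeq 0.6.0 and mm10 were used, per the submitters' processing notes; the sources used here name neither the annotation nor the strand setting. The authors deposited unnormalized counts of reads per gene (23420 rows, of which 27 carry names turned into dates and 4 a repeated name; none is blank) and, per library, junction lists made by TopHat, per the file headers, whose deposited count is the reads spanning the junction. The row Rn45s, a ribosomal RNA precursor, took 9.56% to 13.5% of gene counts, and annotated introns held 97.9% to 98.0% of junction reads in cKO and 98.0% to 98.5% in Control libraries.

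Genes were tested with edgeR 4.0.16 (R 4.3.3; filterByExpr, TMM, quasi-likelihood, no covariate), and p-values were adjusted by Benjamini-Hochberg over all 16067 genes; standard errors were derived from fold changes and F statistics. Spliced reads per gene are junction reads on GENCODE M21 introns of 1 gene, tested in the same way. Junctions with at least 10 reads in all and reads in at least 2 libraries entered diffSpliceDGE. Coordinates are 1-based, those of introns being their first and last bases. Tests were checked on simulated data. Alternatives were DESeq2 1.42.0, limma-voom (limma 3.58.1), other scalings and filters, the replicate number as a block and each library left out. Replicate numbers were not taken to pair animals: same-numbered libraries deviated together with r = 0.184, -0.0376 and 0.0460.

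The members and lists were chosen with earlier results of these data known. Named beside the members are, per list, up to 4 called genes with the smallest p or the 2 with the highest CPM where none was called, every called member junction, and each member's most-read unannotated junction with at least 10 reads. Of 73 symbols in the 4 amino acid lists, 72 were in the table. Some results of list genes are not reported here.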

Additional observations from a re-analysis of the deposited data

How the results depend on the processing

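No member was called at the gene level or on spliced reads under any alternative run. Of the 71 genes tested in the 4 amino acid lists, DESeq2 called 3, where it called 12.7% of all genes. The fit with the replicate block called 5 of the 71, where it called 1734 of all 16067 genes. Those 5 were all lower in cKO, among them Glud1, Bcat1, Slc6a9 and Slc7a10. With a library left out, between 0 and 2 of the 71 were called. Over all 5 pathway lists the calls numbered 7, and 12 with DESeq2, 13 with the replicate block and 5 to 8 with a library left out. The block also raised the calls over all genes from 1265 to 1734, and the 3 called member junctions to 4 by adding the junction that passes over the extra exon of Psph. With a minimum change of 10 percentage points 1 member junction was called, and with a library left out 0 to 2. The block changed no other call of a member. The direction of small differences depended on single libraries. With a library left out, log2 fold changes ranged from -0.13 to 0.013 (Phgdh), -0.075 to 0.11 (Shmt2), -0.026 to 0.20 (Asns), -0.058 to 0.23 (Slc7a11), -0.18 to 0.051 (Slc3a2), -0.17 to 0.056 (Dld), -0.077 to 0.13 (Mat2a), -0.12 to 0.086 (Got1) and -0.16 to 0.026 (Slc38a2). Without a change of sign they ranged from -0.13 to -0.042 (Psat1), 0.053 to 0.32 (Psph), 0.24 to 0.75 (Mthfd2), 0.048 to 0.14 (Aldh1l2) and 0.10 to 0.32 (Slc7a5). On spliced reads they ranged from -0.12 to 0.055 (Phgdh), -0.11 to 0.084 (Shmt2), -0.14 to 0.29 (Aldh1l2), -0.079 to 0.16 (Asns) and -0.17 to 0.081 (Slc3a2). Upper quartile scaling gave 0.000685 for Got1. The cause was not tested. Scalings moved the median of all genes by under 0.03. Depth limits the junctions with few reads, such as those of Mthfd2 and Aldh1l2.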
